A study of Mus musculus with 24 samples.

Results

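The cell cycle genes described here are 38 listed genes that drive or mark the passage of a cell from growth through DNA synthesis to division. They were grouped as G1 (11 genes), S (10 genes) and G2/M (17 genes). For each listed symbol, 1 probe set of the Mouse430_2 array was used, the one with the brightest average signal on the 24 arrays. This gave 37 members of 18193 genes on the arrays, and 89 of the 34945 probe sets that carry a single gene symbol. Ccnb1, which encodes cyclin B1, was matched to no such probe set in the annotation used and was not analysed here, so the G2/M group held 16 members. All 37 passed the filter on dim genes, a log2 level above 6.07 on at least 2 of the 24 arrays, which 13837 genes passed.

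Cells enter the cycle when D-type cyclins with Cdk4 or Cdk6, and E-type cyclins with Cdk2, release E2F factors from the retinoblastoma family, while inhibitors such as p27 (Cdkn1b) and p18 (Cdkn2c) hold these kinases back. E2F targets then license and copy DNA, and cyclins A and B with Cdk1 carry the cell into mitosis, which the anaphase-promoting complex ends. The neural crest mesenchyme of the facial prominences divides rapidly while the jaws grow, and TGF-beta signals are known to slow G1 in many epithelial cells.

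The study deleted Alk5 (gene symbol Tgfbr1), a type I TGF-beta receptor, and compared the developing jaws of knockout embryos and control littermates at embryonic day 12.5. Wnt1cre;Alk5fl/+ mice were crossed to Alk5fl/fl mice on a C57B6 background. Wnt1-Cre acts in the neural crest, so other cells of the jaw keep the gene. Embryos counted as mutant were those with a cleft palate and a defect of the skull vault. The labels do not show whether the embryos of these arrays were sorted that way. By the cross, a control littermate may carry floxed alleles, and which control carries Cre is not given in the sources used here. There were 16 knockout arrays, 4 for each of the distal mandible, proximal mandible, distal maxilla and proximal maxilla, numbered 1 to 4, and 8 control arrays, 2 for each part, numbered 1 and 2. The labels do not say which samples share an embryo, a litter or a pool, so p-values reflect only how far these samples spread, which may be technical. Values are log2 levels made by the authors with RMA, levels of different probe sets are not comparable, and precision is limited by the number of arrays.

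Several features of the arrays bear on the cell cycle genes and are given before the results. Knockouts 1 and 2 formed a set of arrays unlike the rest. Control probe sets for Gapdh and beta-actin read the 3' and the 5' end of their transcripts, and the 3' excess, a sign of RNA quality, averaged 1.13 ± 0.28 on them (log2, SD, n = 8 arrays), 0.08 ± 0.06 on the knockout arrays numbered 3 and 4 (n = 8) and 0.18 ± 0.04 on the control arrays (n = 8). The mean of the hybridisation control probe sets per array also parted all 3 sets (log2). It lay between 11.30 and 12.19 in knockouts 1 and 2, 9.03 and 9.51 in knockouts 3 and 4, and 10.09 and 11.07 in controls. The knockouts are therefore given as 2 array sets, and since the controls form a set of their own, genotype and array set cannot be told apart. By Xist, 4 arrays of each knockout set were female and all 8 control arrays were male. The knockout proximal maxilla arrays numbered 1 and 2 were of the other sex than the remaining parts with the same number. The mandible of control 2 went against its end labels. Across 13837 genes, which are not independent replicates, its distal minus proximal differences correlated at -0.78 with those of control 1, and at -0.77 and -0.64 with knockouts 3 and 4, whereas control 1 correlated at 0.72 and 0.57 with knockouts 3 and 4. With knockouts 1 and 2 the correlations in the mandible were weak for control 1 (0.00 and 0.18) and for control 2 (-0.05 and -0.26). In the maxilla they were low throughout, and control 2 was below 0 there too, at -0.35 with control 1 and -0.25, -0.21 and -0.34 with knockouts 1 to 3, and 0.11 with knockout 4. No array was relabelled, and results on ends are given with and without control 2. Tgfbr1 itself stood at 12.32, 12.37, 12.50 and 12.39 in knockouts 1 to 4 and at 12.32 and 12.31 in controls 1 and 2 (log2, means over the 4 parts). Where its probe set lies relative to the deleted part is not given in the sources used here, and the dissected tissue also holds cells outside the neural crest, so this level checks no label. All 5 mesenchyme markers (Prrx1, Twist1, Msx1, Alx4, Pdgfra) were above the filter level, with a mean per array between 10.77 and 11.35 in knockouts 1 and 2, 10.96 and 11.61 in knockouts 3 and 4, and 10.39 and 11.72 in controls.

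The promoters of 4 members are shown because they carry the letters through which cell cycle genes are classically grouped, and because the genes were called in both directions in the comparison of array sets: Cdk1, Ccnb2 and Cdk2 lower and Cdc20 higher in knockouts 1 and 2 by the probe set used. Another Cdc20 probe set was lower in knockouts 1 and 2 than in knockouts 3 and 4 (-0.45). They were chosen after the values were seen. Each is the 250 bases before the start of the gene, 5′ to 3′ on the gene's strand, from RefSeq (GRCm38.p6). Capitals mark the motifs searched on both strands: the cell cycle genes homology region or CHR (TTTGAA or TTCGAA), the CCAAT box (CCAAT), and an E2F motif (TTTCCCGC, TTTGGCGC, TTTCGCGC or TTTGCCGC).
Cdk1, chr10:69352913-69353162, minus strand: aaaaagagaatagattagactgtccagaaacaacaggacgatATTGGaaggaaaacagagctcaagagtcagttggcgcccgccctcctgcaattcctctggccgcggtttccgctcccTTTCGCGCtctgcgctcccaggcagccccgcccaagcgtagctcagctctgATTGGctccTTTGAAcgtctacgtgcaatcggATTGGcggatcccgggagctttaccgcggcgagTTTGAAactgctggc
Ccnb2, chr9:70421555-70421804, minus strand: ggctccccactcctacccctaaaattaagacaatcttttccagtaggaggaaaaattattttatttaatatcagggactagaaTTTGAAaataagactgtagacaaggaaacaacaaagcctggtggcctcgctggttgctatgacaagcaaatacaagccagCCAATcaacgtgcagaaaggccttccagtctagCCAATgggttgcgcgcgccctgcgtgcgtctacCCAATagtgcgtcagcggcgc
Cdc20, chr4:118437344-118437593, minus strand: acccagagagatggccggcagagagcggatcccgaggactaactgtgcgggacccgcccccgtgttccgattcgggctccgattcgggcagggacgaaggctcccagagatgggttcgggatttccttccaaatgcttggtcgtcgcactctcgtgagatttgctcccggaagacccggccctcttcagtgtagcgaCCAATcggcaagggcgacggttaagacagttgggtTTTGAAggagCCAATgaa
Cdk2, chr10:128705052-128705301, minus strand: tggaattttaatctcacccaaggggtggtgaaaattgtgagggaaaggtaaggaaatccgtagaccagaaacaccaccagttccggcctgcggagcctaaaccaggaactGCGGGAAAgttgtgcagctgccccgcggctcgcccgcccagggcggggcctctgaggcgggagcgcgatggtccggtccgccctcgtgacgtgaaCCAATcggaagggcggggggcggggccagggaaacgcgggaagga

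Of the 38 listed genes, 30 had a promoter in the table used, with 33 starts in all, counting Ccnb1. A CHR lay in 7 of 13 G2/M promoters (53.8%), 2 of 10 S promoters and 0 of 10 G1 promoters, against 17.1% of 32851 promoters of all genes. The CCAAT box lay in 12 of 13 G2/M promoters (92.3%), 8 of 10 S promoters and 3 of 10 G1 promoters, against 33.8% of all promoters. The E2F motif lay in 4 of 10 S promoters, 1 of 13 G2/M promoters and 1 of 10 G1 promoters, against 1.86% of all. No motif overlapped another in these 33 promoters. In the Cdk1 promoter the 2 CHR letters start 71 and 15 bases before the gene start, and the 3 CCAAT letters, on the other strand, 208, 80 and 48 bases before it. The Cdc20 promoter has its CHR 18 bases before the start, between 2 CCAAT boxes 53 and 8 bases before it, and that of Cdk2 holds an E2F motif and a CCAAT box but no CHR. A match of letters is a description, not a site or a cause.

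Over all 16 knockout arrays, no cell cycle gene differed from control by the test used. Limma on the 4 knockout and 2 control means over the parts called 0 of 37 members and 0 of 13837 genes (0%) at an adjusted p under 0.05. At an unadjusted p under 0.05 it picked 0 members and 965 genes (6.97%). The median difference was 0.04 for the members and -0.05 for all genes tested (log2, knockout minus control). By phase the median was 0.11 in S and 0.04 in G2/M, and in G1 5 of 11 members lay above 0. The 3 members with the smallest p were Mcm2, a subunit of the replicative helicase (0.22 ± 0.11, SE), Cenpa, the centromeric histone H3 (0.21 ± 0.10), and Aurka, a spindle kinase (0.24 ± 0.12), each with an adjusted p of 0.706. The spread among the knockout means held the shift between the array sets, which the map of all members by array shows. Fitted with the 3 array sets as groups, the mean of both knockout sets differed from control for 12 members, beside 35.9% of all genes.

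**Figure D1:**
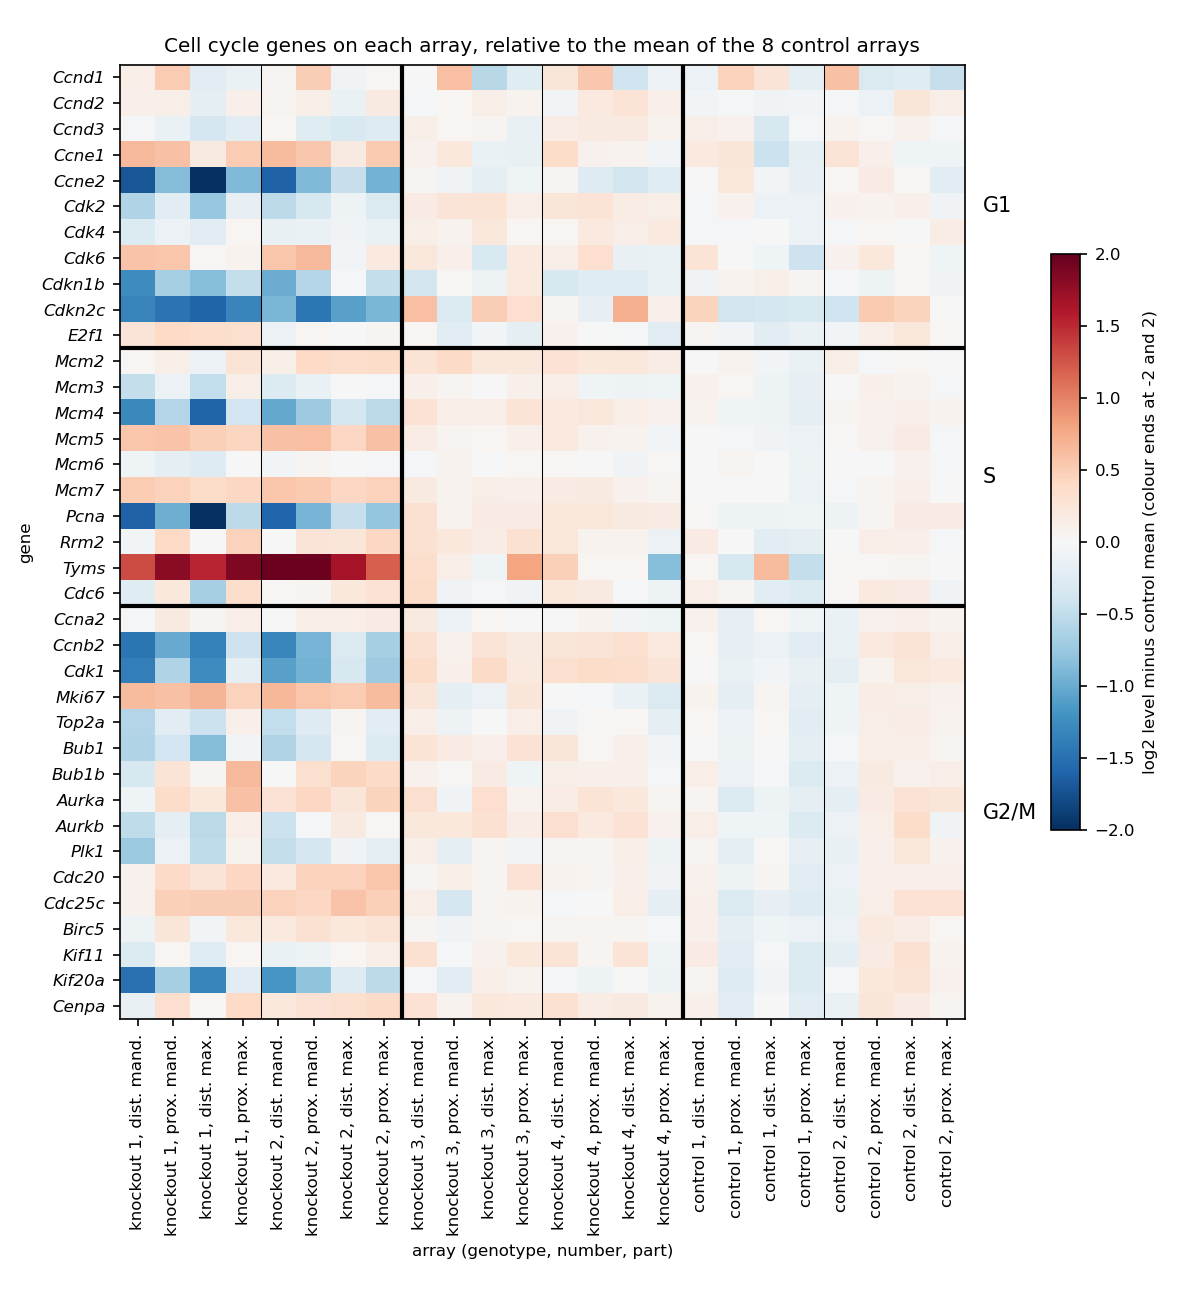
Colour map of the 37 members (rows, by phase) on the 24 arrays (columns: knockouts 1 and 2, knockouts 3 and 4, then control), as log2 level minus the mean of the 8 control arrays. Knockouts 1 and 2 stand apart in both directions (Tyms high; Cdkn2c, Ccne2 and Pcna low), while knockouts 3 and 4 lie close to control.

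In the knockouts numbered 1 and 2, 20 of 37 members differed from control, 8 higher and 12 lower, beside 52.6% of all genes tested (20.9% higher and 31.7% lower). The members' share of 54.1% was near that background. The phases did not move one way: 2 rose and 4 fell of 11 in G1, 3 rose and 2 fell of 10 in S, and 3 rose and 6 fell of 16 in G2/M. Median differences were -0.13, 0.11 and 0.02 in the 3 phases and -0.06 over all genes. At an unadjusted p under 0.05 there were 23 members, beside 59.2% of all genes. In bulk tissue, fewer cells of a type and less RNA per cell cannot be told apart.

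Among the G1 members, the inhibitor and cyclin E2 fell most. Cdkn2c, which encodes p18 and binds Cdk4 and Cdk6, had a lowest, median and highest level of 7.80, 8.08 and 8.50 on the 8 arrays of knockouts 1 and 2, 9.11, 9.63 and 10.11 in knockouts 3 and 4, and 9.004, 9.25 and 9.94 in controls. No array of knockouts 1 and 2 reached the lowest control array. The difference was -1.26 ± 0.16 (log2, SE, adjusted p = 0.00402). Ccne2, a Cdk2 partner, had 7.73, 9.20 and 9.65 in knockouts 1 and 2, 9.76, 9.97 and 10.17 in knockouts 3 and 4, and 9.89, 10.12 and 10.33 in controls, again without overlap between knockouts 1 and 2 and control. It fell by 1.22 ± 0.17 (adjusted p = 0.00519). Its close relative Ccne1 moved the other way, with 11.17, 11.52 and 11.64 in knockouts 1 and 2 and 10.56, 10.99 and 11.26 in controls, and rose by 0.47 ± 0.07 (adjusted p = 0.00643). Here the arrays overlapped slightly. Cdkn1b, the p27 inhibitor (-0.67 ± 0.12, adjusted p = 0.00966), and Cdk2, the partner of E cyclins (-0.37 ± 0.08, adjusted p = 0.0185), fell, and Cdk6, the partner of D cyclins (0.32 ± 0.08, adjusted p = 0.0235), rose. The D cyclins did not pass by the probe set used: Ccnd1 differed by 0.10, Ccnd2 by 0.04 and Ccnd3 by -0.18, and neither did Cdk4 (-0.13) or E2f1 (0.16). Other Ccnd1 probe sets stood at 12.34 and 10.61 in knockouts 1 and 2 and 11.92 and 10.53 in controls. By another probe set E2f1 stood at 9.80 in knockouts 1 and 2 and 9.09 in controls, and Ccnd3, against its sign above, at 7.51 and 7.03.

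By the probe sets used, the S members split within the same complex. Of the Mcm2 to Mcm7 helicase, Mcm5 (0.53 ± 0.08, adjusted p = 0.00572) and Mcm7 (0.46 ± 0.07, adjusted p = 0.00656) rose and Mcm4 fell (-0.81 ± 0.13, adjusted p = 0.00725), while Mcm2 (0.19), Mcm3 (-0.18) and Mcm6 (-0.07) did not pass. Other probe sets parted these genes differently. By another probe set, Mcm6 stood at 11.91 in knockouts 1 and 2 and 11.44 in controls, and Mcm2 at 10.95 and 11.06. Mcm7 stood at 11.54 and 11.55 by another, and higher in knockouts 1 and 2 by the rest (11.95 and 11.62, 11.67 and 10.74). Mcm4 had 10.95, 11.91 and 12.21 (lowest, median, highest) in knockouts 1 and 2 and 12.39, 12.62 and 12.66 in controls. Pcna, the sliding clamp of the DNA polymerases, had 11.16, 12.20 and 12.69 in knockouts 1 and 2, 13.23, 13.32 and 13.46 in knockouts 3 and 4, and 13.04, 13.11 and 13.32 in controls. Neither gene overlapped between knockouts 1 and 2 and control, and Pcna fell by 1.11 ± 0.14 (adjusted p = 0.00376). Tyms, which makes thymidylate for DNA synthesis, had 8.03, 8.58 and 8.80 in knockouts 1 and 2, 5.99, 6.93 and 7.63 in knockouts 3 and 4, and 6.36, 6.87 and 7.47 in controls. It rose by 1.66 ± 0.07 (adjusted p = 0.00148), again without overlap. Rrm2, a ribonucleotide reductase subunit (0.21), and Cdc6, a loader of the helicase (0.03), did not pass.

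Of the G2/M members, the kinase Cdk1 and its cyclin fell while the proliferation marker Mki67 rose. Cdk1 had 9.96, 10.50 and 11.15 in knockouts 1 and 2, 11.44, 11.67 and 11.73 in knockouts 3 and 4, and 11.17, 11.32 and 11.57 in controls, a difference of -0.82 ± 0.09 between knockouts 1 and 2 and control (adjusted p = 0.00304). Ccnb2, cyclin B2, had 10.02, 10.51 and 11.19 in knockouts 1 and 2, and 11.26, 11.43 and 11.74 in controls (-0.93 ± 0.13, adjusted p = 0.00535). The highest arrays of knockouts 1 and 2 came close to the lowest control arrays for both genes. Mki67, whose protein coats mitotic chromosomes, had 13.14, 13.29 and 13.35 in knockouts 1 and 2 and 12.48, 12.73 and 12.83 in controls (0.59 ± 0.08, adjusted p = 0.00443). Its arrays did not overlap. Kif20a, a kinesin of cytokinesis, fell (-0.81 ± 0.13, adjusted p = 0.00785), as did Bub1, a checkpoint kinase (-0.39 ± 0.10, adjusted p = 0.0295), Plk1, a mitotic kinase (-0.29 ± 0.08, adjusted p = 0.0344), and Top2a, the topoisomerase that untangles chromosomes (-0.25 ± 0.08, adjusted p = 0.049). Cdc20, an activator of the anaphase-promoting complex (0.35 ± 0.08, adjusted p = 0.0228), and Cdc25c, a phosphatase that activates Cdk1 (0.44 ± 0.12, adjusted p = 0.0338), rose. The remaining 7 G2/M members (Ccna2, Bub1b, Aurka, Aurkb, Birc5, Kif11 and Cenpa) did not pass by the probe set used, with differences between -0.18 and 0.31. Other probe sets of some lay farther apart. Ccna2 stood there at 11.04 in knockouts 1 and 2 and 11.66 in controls, Kif11 at 9.12 and 9.76, and Bub1b at 11.25 and 10.64.

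**Figure D2:**
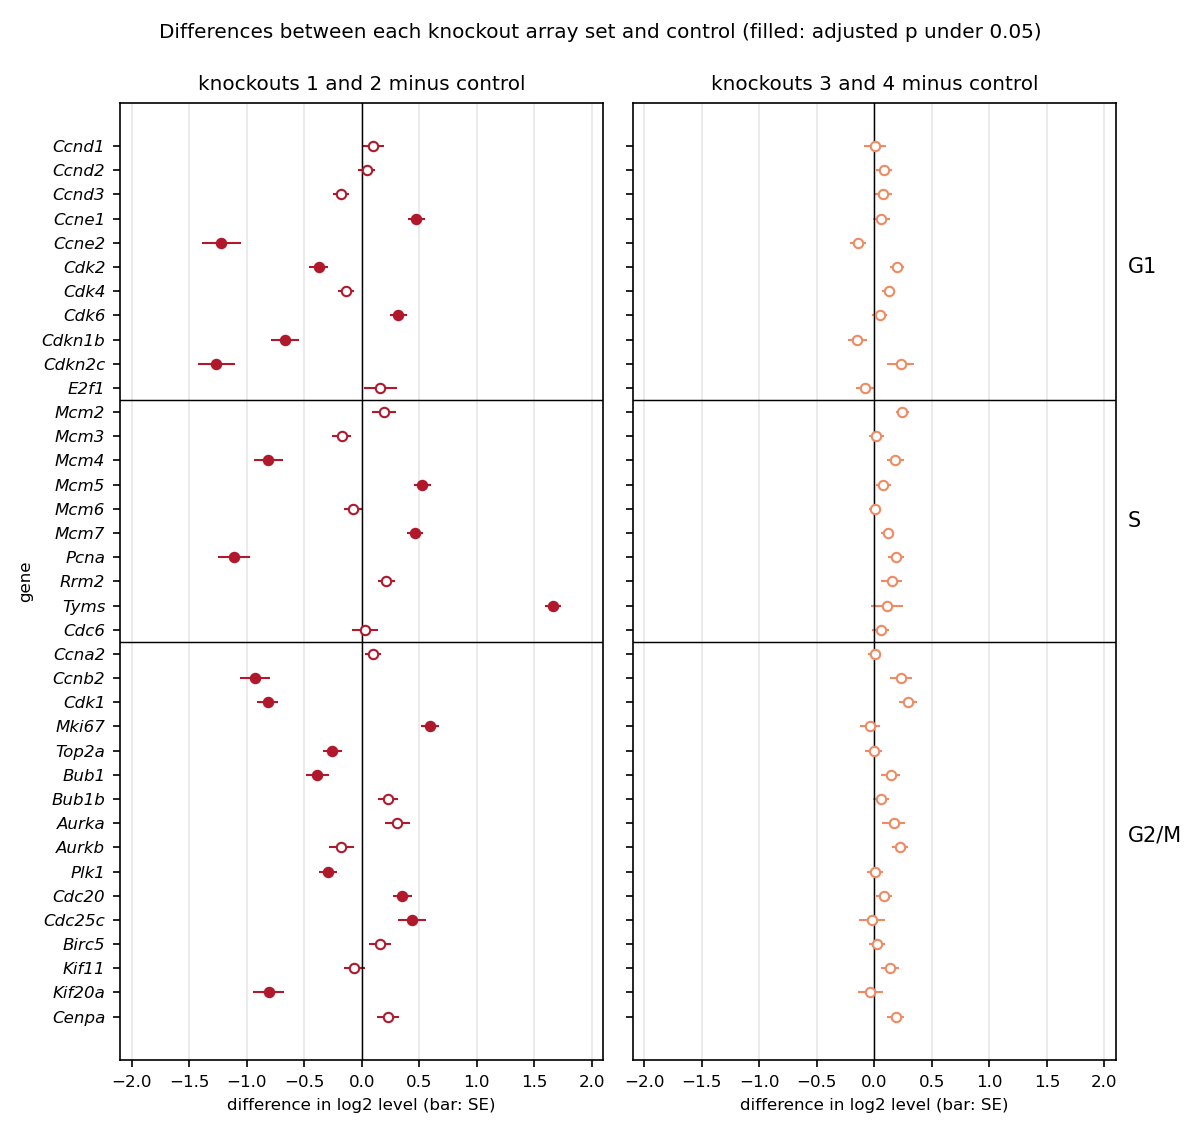
Difference in log2 level (x axis, point and SE) of each member (y axis) between knockouts 1 and 2 and control (left) and knockouts 3 and 4 and control (right), with filled points for an adjusted p under 0.05. The left panel holds 20 filled points between -1.26 and 1.66 and the right panel none, with differences between -0.15 and 0.29.

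Some of the lower values ran with the 3' excess on single arrays of knockouts 1 and 2. Knockout 1 distal maxilla had the highest 3' excess of all arrays (1.50) and the lowest Pcna (11.16), Ccne2 (7.73) and Mcm4 (10.95), whereas knockout 2 distal maxilla had the lowest 3' excess of the set (0.71) and the highest Pcna (12.69) and Ccne2 (9.65). Of members that rose, Tyms was lowest within this set in knockout 2 proximal maxilla (8.03, 3' excess 1.13). Mcm5 was lowest in knockout 2 distal maxilla (12.87). With the 3' excess as a covariate 0 members were called, as were 0% of all genes, and Cdkn2c, Ccne2, Pcna, Ccnb2 and Mcm4 changed sign, none of them past the threshold. The 3' excess did not overlap between knockouts 1 and 2 and control. A fit with this covariate can therefore separate it from the array set only through the spread within sets, and decides nothing here. Leaving out knockout 1 leaves knockout 2 alone in its set. The means of knockout 2 over the parts were 12.21 for Pcna, 9.14 for Ccne2 and 11.90 for Mcm4. Those of controls 1 and 2 were 13.08 and 13.22, 10.11 and 10.12, and 12.49 and 12.64. Erythroid markers (6 of 6 tested higher, median difference 1.26) and markers of endothelium (5 of 5 lower, -0.67) and cartilage (4 of 5 lower, -2.27) moved beside them, and their part in these differences was not tested. The mean of the erythroid markers per array lay between 10.45 and 11.12 in knockouts 1 and 2 and between 9.47 and 9.70 in controls. The low cartilage level was not particular to knockouts 1 and 2. Its mean per array lay between 7.59 and 9.44 in knockouts 3 and 4 (median 8.11) and 8.47 and 10.39 in controls (median 9.82). That of endothelium lay between 8.74 and 9.34 in knockouts 3 and 4 and 8.86 and 9.301 in controls. In knockouts 1 and 2, Lin28a and Trim71, genes of early embryonic cells, stood 3.10 and 3.14 higher than in controls (adjusted p = 0.00148 and 0.00139).

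Other probe sets of the same genes often gave another answer. Of 26 members with several probe sets above the filter level, 13 had differences of both signs between knockouts 1 and 2 and control, and the range between probe sets of a gene was 0.68 in the median gene and over 1 in 7 genes. Top2a stood at -0.25 by the probe set used and at 1.69 by another, and Rrm2 at 0.21 and -1.24. Cenpa had 0.23 and 1.58, and Mcm3 -0.18 and -1.48. For Ccnd2 and Cdk6, probe sets of the same gene were called in opposite directions. The other 13 pointed one way, among them Ccne1, Cdkn1b, Mcm4, Mcm5, Tyms and Cdc25c. For Mcm4 the other probe set barely moved, at 11.92 in knockouts 1 and 2 and 11.99 in controls. The size of its fall thus rests on the probe set used. The same holds for the size of the Tyms rise. Its other probe set above the filter level stood at 7.31 in knockouts 1 and 2 and 6.93 in controls. The remaining 11 members, such as Cdkn2c, Ccne2, Pcna, Cdk1, Ccnb2 and Mki67, had no second probe set above the filter level. Averaging all probe sets of a gene called 25 members, 12 higher and 13 lower. The share of all genes called under this averaging is not given here, so this count shows nothing particular to the members.

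**Figure D3:**
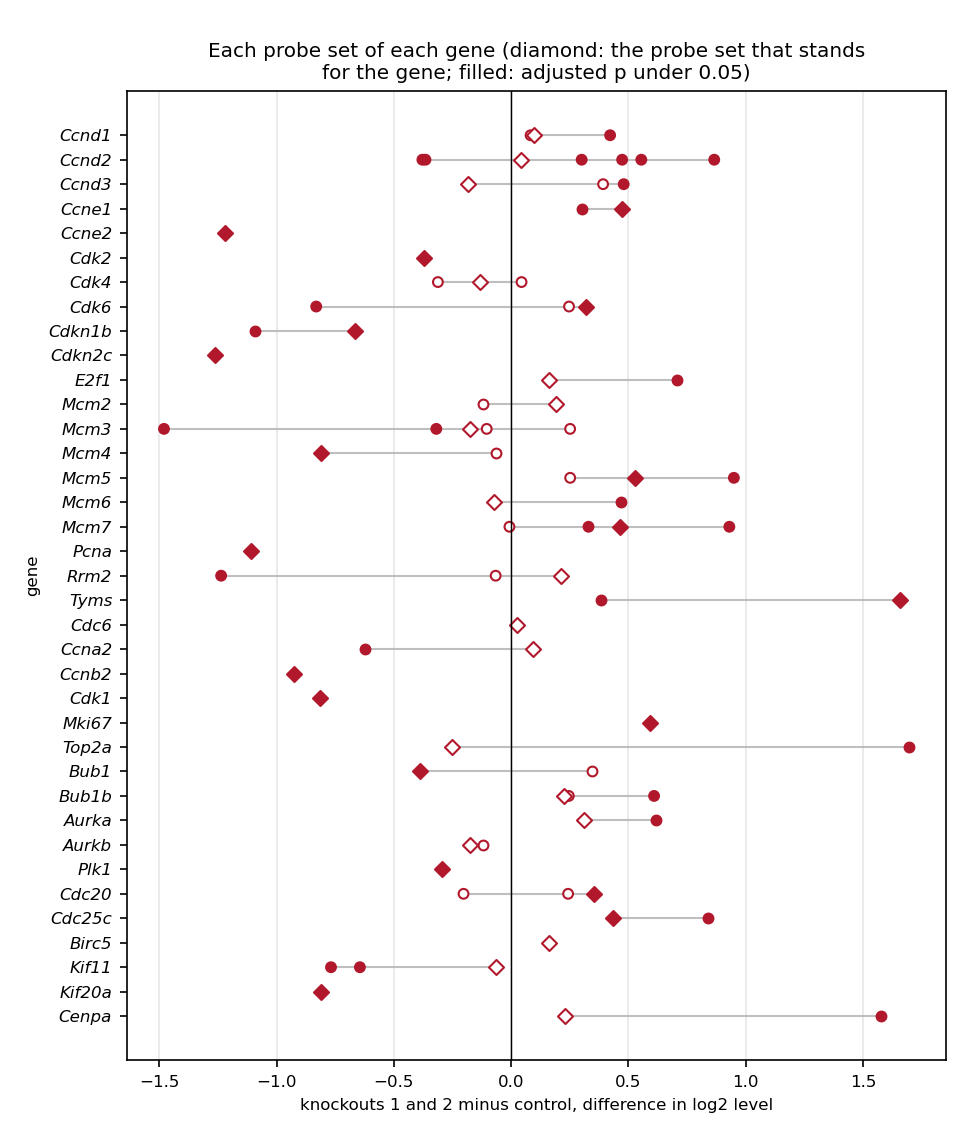
Difference in log2 level between knockouts 1 and 2 and control (x axis) for every probe set above the filter level of each member (y axis), with a diamond for the probe set that stands for the gene and filled symbols for an adjusted p under 0.05 over all 34945 probe sets. The symbols of Top2a, Mcm3, Rrm2, Cenpa and Tyms lie more than 1 apart, and those of Ccnd2 and Cdk6 are filled on both sides of 0.

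In the knockouts numbered 3 and 4, no member differed from control. The 3' excess of this set was near that of the controls, but its hybridisation controls lay lower, without overlap. Limma called 0 of 37 members, beside 1.56% of all genes (0.275% higher and 1.29% lower), and 4 members had an unadjusted p under 0.05, beside 26.8% of all genes. The differences were small, between -0.15 (Cdkn1b) and 0.29 (Cdk1), and 30 of 37 lay above 0, with a median of 0.08 against -0.03 over all genes. All 10 S members, 12 of 16 G2/M members and 8 of 11 G1 members lay above 0. Members share the same arrays, so these counts are not independent observations. Both knockout sets were set against the same 8 control arrays, so these comparisons are not independent.

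The members with the smallest p in knockouts 3 and 4 were Mcm2, Cdk1 and Cdk2. Mcm2 had 11.67, 11.74 and 11.89 (lowest, median, highest) in knockouts 3 and 4 and 11.39, 11.51 and 11.64 in controls. Its arrays did not overlap, and the difference of 0.24 ± 0.06 did not pass (adjusted p = 0.106). Cdk1 differed by 0.29 ± 0.08 (adjusted p = 0.127) and Cdk2 by 0.20 ± 0.06 (adjusted p = 0.143), both genes that fell in knockouts 1 and 2. Cdk2 lay between 11.35 and 11.51 in knockouts 3 and 4 and between 11.11 and 11.33 in controls, also without overlap. Tyms, the largest difference in knockouts 1 and 2, was at 0.11 ± 0.14 here (adjusted p = 0.636).

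The 2 knockout sets differed from each other in 24 of 37 members, 8 higher and 16 lower in knockouts 1 and 2, beside 64.9% of all genes (28.7% higher and 36.2% lower). The same number had an unadjusted p under 0.05, beside 69% of all genes. Cdkn2c (-1.49 ± 0.13, adjusted p = 0.000342), Pcna (-1.30 ± 0.12, adjusted p = 0.000436), Ccnb2 (-1.16 ± 0.10, adjusted p = 0.000384) and Cdk1 (-1.11 ± 0.07, adjusted p = 0.000191) fell most, with Ccne2 (-1.08) and Mcm4 (-0.99). By its other probe set Mcm4 did not fall, at 11.92 in knockouts 1 and 2 and 11.90 in knockouts 3 and 4. Tyms (1.55 ± 0.13, adjusted p = 0.000342), Mki67 (0.63), Cdc25c (0.46), Mcm5 (0.45), Ccne1 (0.41) and Mcm7 (0.35) rose most. By another probe set Mcm7 did not rise, at 11.54 in knockouts 1 and 2 and 11.76 in knockouts 3 and 4. By its remaining probe sets it was higher in knockouts 1 and 2 (11.95 and 11.71, 11.67 and 10.96). Ccnd3 (-0.26), Cdk4 (-0.26), Aurkb, a kinase of the chromosomal passenger complex (-0.40), and Kif11, a spindle kinesin (-0.20), passed here and not against control. Of the 26 members with several probe sets above the filter level, 13 had differences of both signs in this comparison, with a median range of 0.83. Probe sets of Ccnd2, Ccnd3, Cdc20, Cdk6 and Top2a were called in opposite directions, so the direction of these 5 members depends on the probe set. Over the 16 G2/M members, the mean per array was between 10.78 and 11.39 in knockouts 1 and 2, 11.18 and 11.41 in knockouts 3 and 4, and 11.01 and 11.42 in controls. Over the 11 G1 members these ranges were 10.65 to 11.08, 11.17 to 11.30 and 11.05 to 11.28, and over the 10 S members 11.34 to 11.92, 11.55 to 11.85 and 11.44 to 11.73. The widest range was thus that of knockouts 1 and 2 in each phase, and its G1 means lay below those of all arrays of knockouts 3 and 4. The 3' excess did not overlap between these sets either, and with it as a covariate 0 members were called. That fit has the same limit as the one against control.

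Further genes of the cycle, from lists that were drawn up with earlier results of these data known, moved in both directions too. Between knockouts 1 and 2 and control, 0 rose and 4 fell of 7 inhibitors and pocket proteins, 3 rose and 3 fell of 15 transcription factors, 11 rose and 1 fell of 25 replication genes, and 7 rose and 8 fell of 35 mitosis genes, beside 20.9% of all genes higher and 31.7% lower. Rbl2, the pocket protein p130 of resting cells, stood at 6.94 and 7.11 in knockouts 1 and 2, 9.01 and 8.91 in knockouts 3 and 4, and 9.23 and 9.23 in controls (means over the parts), and fell by 2.21 ± 0.09 in knockouts 1 and 2 (adjusted p = 0.00139). Myc, a driver of growth, fell by 1.35 ± 0.07 (adjusted p = 0.0015), while Pole, a DNA polymerase subunit, rose by 1.00 ± 0.08 (adjusted p = 0.00185) and E2f2 by 0.79 ± 0.07 (adjusted p = 0.00192). Median differences were -0.39 for the inhibitors, 0.20 for replication and 0.06 for mitosis. In knockouts 3 and 4 a single gene of these lists passed, beside 1.56% of all genes: E2f4, an E2F that represses in resting cells, at 7.81 and 7.88 against 8.65 and 8.87 in controls (-0.92 ± 0.09, adjusted p = 0.0486). In knockouts 1 and 2 E2f4 stood at 8.67 and 8.70, between the controls. Cdkn1a, an inhibitor that TGF-beta is known to induce in epithelial cells, stood at 9.64, 9.70, 9.51 and 9.61 in knockouts 1 to 4 and at 9.84 and 9.54 in controls 1 and 2, and Cdkn2b, another such inhibitor, at 5.97, 5.87, 5.84 and 6.06 in knockouts 1 to 4 and at 5.80 and 6.03 in controls 1 and 2. Knockouts and controls overlapped for both. All of these Cdkn2b means lay below the filter level of 6.07, so that overlap is one of a dim signal.

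Within single parts of the jaws no member passed between knockout and control with the fit used, whose spread holds the shift between the knockout sets. Limma with all 24 arrays in 8 groups called 0 of 37 members in the proximal mandible, beside 0% of all genes, 0 in the distal mandible (0.0145%), 0 in the proximal maxilla (0.00723%) and 0 in the distal maxilla (0.00723%). At an unadjusted p under 0.05 these were 1, 2, 4 and 0 members, beside 7.65%, 9.86%, 6.35% and 4.89% of all genes. In the proximal maxilla 27 of 37 members lay above 0, with a median of 0.12, and the smallest p were those of Mcm2 (0.31 ± 0.13), Rrm2 (0.36 ± 0.15) and Cenpa (0.35 ± 0.16, adjusted p = 0.734). In the distal maxilla they were those of Ccne1 (0.33 ± 0.20), Ccnd1 (-0.32 ± 0.20) and Ccne2 (-0.83 ± 0.55), each with an adjusted p of 0.903. In the distal mandible they were those of Cdkn1b (-0.68 ± 0.27, adjusted p = 0.442), Mcm7 (0.37 ± 0.16) and Mcm5 (0.36 ± 0.20). In the proximal mandible, Ccnd1 stood 0.45 ± 0.20 higher in knockouts (adjusted p = 0.625), with 12.87, 12.86, 12.97 and 12.91 in knockouts 1 to 4 against 12.83 and 12.08 in controls 1 and 2. Mcm2 (0.25 ± 0.13) and Cdk6 (0.31 ± 0.17) followed. In Ccnd1, control 1 lay with the knockouts and control 2, the mandible that went against its end labels, far below. Without control 2, 0 members were called in either end of the mandible, beside 0.0217% of all genes in the proximal and 0% in the distal end. With the replicate number as a block, which compares knockouts 1 and 2 with the controls, 17, 15, 13 and 16 members were called in the proximal and distal mandible and the proximal and distal maxilla, beside 43.2%, 48.5%, 36% and 41.4% of all genes.

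Between the jaws, 3 G1 genes were higher in the mandible than in the maxilla of knockouts, and no S or G2/M gene passed. The 3 of 37 members stand beside 7.71% of all genes (3.34% higher and 4.37% lower), so their count is near the background, as is that of 6 members with an unadjusted p under 0.05, beside 22.4%. Median differences, mandible minus maxilla, were 0.03 in G1, 0.01 in S and -0.09 in G2/M, where 14 of 16 members lay below 0, against -0.02 over all genes. The array sets parted in G2/M, with 14 of 16 members below 0 and a median of -0.17 in knockouts 1 and 2, 6 of 16 and 0.01 in knockouts 3 and 4, and 12 of 16 and -0.02 in controls. The G2/M members farthest below 0 in knockouts 1 and 2 were Ccnb2 (-0.50), Kif20a (-0.45) and Cdk1 (-0.38), which stood at -0.02, -0.11 and -0.01 in knockouts 3 and 4. Array set was a term of this fit, so the shift between the knockout sets does not enter its spread.

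Cdk6, the kinase that D cyclins activate, had levels of 10.67, 10.67, 10.69 and 10.76 on the mandible arrays of knockouts 1 and 2, against 10.05, 10.14, 10.19 and 10.31 on their maxilla arrays. In knockouts 3 and 4 these were 10.21, 10.24, 10.34 and 10.45 in the mandible and 9.82, 9.97, 9.98 and 10.31 in the maxilla. The jaws did not overlap in knockouts 1 and 2, and 1 maxilla array, that of the proximal end of knockout 3, reached the mandible in knockouts 3 and 4. The difference was 0.41 ± 0.07 (adjusted p = 0.00238), with 0.52 in knockouts 1 and 2 and 0.29 in knockouts 3 and 4. Controls had 10.10, 10.20, 10.32 and 10.38 in the mandible and 9.70, 10.03, 10.03 and 10.15 in the maxilla, a difference of 0.27 ± 0.10 that did not pass (adjusted p = 0.256). Of the 3 Cdk6 probe sets, 2 were higher in the knockout mandible, at 0.41 and 0.36 (adjusted p over all probe sets 0.00378 and 0.0106), and the other was at -0.01.

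Ccnd1, cyclin D1, the partner through which growth signals act on Cdk4 and Cdk6, ran in the same direction. Its levels were 12.42, 12.51, 12.86 and 12.87 in the mandible of knockouts 1 and 2, against 12.14, 12.24, 12.30 and 12.39 in their maxilla. In knockouts 3 and 4 they were 12.37, 12.61, 12.91 and 12.97 in the mandible and 11.81, 11.98, 12.12 and 12.24 in the maxilla. No maxilla array reached a mandible array within either knockout set, and the difference was 0.54 ± 0.12 (adjusted p = 0.0136). In controls the jaws overlapped, with 12.08 to 12.95 in the mandible and 11.90 to 12.62 in the maxilla (0.31 ± 0.17, adjusted p = 0.544). All 3 Ccnd1 probe sets were called in knockouts, at 0.54, 0.67 and 0.75.

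Ccne1, cyclin E1, was the only member called in both genotypes with the fit used, and its call in controls was lost under several other settings. Its levels were 11.53, 11.57, 11.62 and 11.64 in the mandible of knockouts 1 and 2, against 11.17, 11.17, 11.49 and 11.51 in their maxilla, and 11.08, 11.08, 11.20 and 11.36 against 10.84, 10.85, 10.94 and 11.05 in knockouts 3 and 4. The difference was 0.26 ± 0.06 (adjusted p = 0.0166). Control mandibles had 11.08, 11.18, 11.22 and 11.26 and control maxillas 10.56, 10.79, 10.90 and 10.90 (0.40 ± 0.08, adjusted p = 0.0448), which made Ccne1 1 of 37 members called in controls, beside 0.687% of all genes, with 0 members lower, beside 0.39%. Cdk6 and Ccnd3 (0.15 ± 0.08, adjusted p = 0.541) followed by p in controls. The call in controls was lost with a replicate block (adjusted p = 0.067), with each array centred on its median (0.0626), with no filter (0.0528) and with 8 groups without array set (0.678). In knockouts it was lost with 8 groups (0.443). The jaws did not overlap in any of the 3 array sets. The other Ccne1 probe set was higher in the mandible too, at 0.38 in knockouts and 0.46 in controls.

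**Figure D4:**
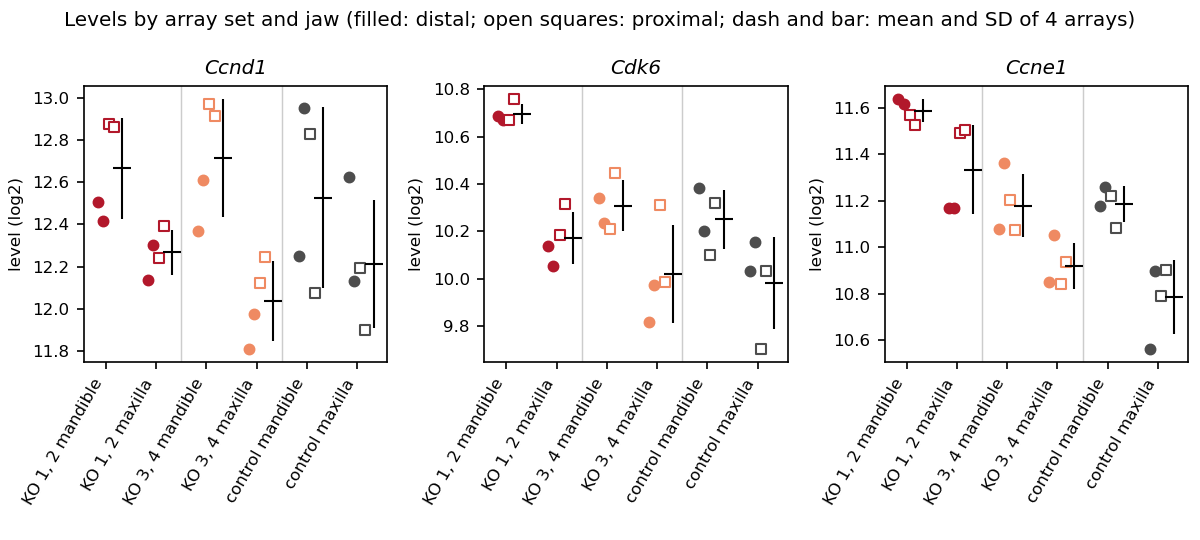
Log2 levels of Ccnd1, Cdk6 and Ccne1 (y axis) by array set and jaw (x axis; KO is knockout), with filled circles for distal and open squares for proximal arrays and a dash with bar for the mean and SD of 4 arrays. Mandible lies above maxilla in each set by 0.25 to 0.68, with overlap for Ccnd1 in controls and for Cdk6 in knockouts 3 and 4 and controls.

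These calls between the jaws rested on few arrays. Without knockout 4, 0 members passed (Cdk6 0.37, adjusted p = 0.0547), and without knockout 3, Cdk6 alone did. Without knockout 1, Cdkn1b (-0.34, adjusted p = 0.0206) and the S gene Pcna (-0.30, adjusted p = 0.0236) passed beside Cdk6, and without knockout 2, Ccne2 (0.26, adjusted p = 0.0365) did. Ccnd1 and Ccne1 each missed the threshold without any 1 of the 4 knockout numbers, with adjusted p between 0.0946 and 0.203 for Ccnd1 and between 0.0814 and 0.157 for Ccne1, while their differences stayed between 0.48 and 0.59 and between 0.24 and 0.27. Without control 1 the difference of Ccne1 in controls was 0.27 (adjusted p = 0.381), and without control 2 it was 0.52 (adjusted p = 0.0333). No member's jaw difference was shown to differ between the genotypes, since the interaction called 0 of 37 members and 0% of all genes, with 0 members at an unadjusted p under 0.05, beside 4.12% of all genes. Its smallest p were those of Rrm2 (-0.17 ± 0.12), Ccnd2 (0.12 ± 0.09) and Ccne1 (-0.14 ± 0.10), each with an adjusted p of 0.995. Skeletal muscle markers were higher in the knockout mandible (4 of 5, median difference 3.10) and neuron markers lower (3 of 5, -2.42), and their part in the differences was not tested. The mean of the muscle markers per array lay between 10.18 and 10.74 in the mandible and 6.71 and 9.31 in the maxilla of knockouts 1 and 2. In knockouts 3 and 4 these were 10.44 to 11.31 and 6.29 to 10.42, and in controls 9.73 to 11.50 and 6.61 to 11.08. From the further lists, Cdkn1c, the p57 inhibitor of differentiating cells, was higher in the mandible of knockouts (0.59 ± 0.07, adjusted p = 0.000282) and of controls (0.51 ± 0.11, adjusted p = 0.0392).

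Between the ends of a jaw no member passed with all arrays. In the knockout mandible 0 of 37 members were called, beside 1.09% of all genes, and in the knockout maxilla 0, beside 0.065% (0.0578% lower), with 0 at an unadjusted p under 0.05, beside 6.09%. The median difference, distal minus proximal, was -0.08 over the members in the mandible and -0.07 in the maxilla, against -0.02 over all genes in the mandible. The array sets parted here. At the distal end of the mandible 30 and 31 of 37 members were lower in knockouts 1 and 2, but 8 and 17 in knockouts 3 and 4, and 8 and 29 in controls 1 and 2. In the maxilla 33, 19, 16 and 7 of 37 were lower at the distal end in knockouts 1 to 4, and 8 and 3 in controls 1 and 2. Within a number and jaw, the median difference lay between -0.36 and 0.15 over the members and between -0.04 and 0.05 over all genes. Members share arrays, so these counts are not independent observations. The 3' excess was higher at the distal than at the proximal end of the mandible in knockout 1 (1.34 and 1.17) and knockout 2 (1.35 and 1.08). It was also higher at the distal end of the maxilla in knockout 1 (1.50 and 0.78), but not in knockout 2 (0.71 and 1.13). In both of these maxillas the distal and proximal array are of opposite sex, so a shared number there does not show a shared embryo. With the proximal arrays exchanged, 33 and 20 of 37 members were lower at the distal end of knockouts 1 and 2.

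Ccnd1 was the member with the most regular difference between the ends. In the mandible its distal and proximal levels were 12.51 and 12.87 in knockout 1, 12.42 and 12.86 in knockout 2, 12.37 and 12.97 in knockout 3, and 12.61 and 12.91 in knockout 4. Every distal array lay below every proximal array of the knockout mandible. The difference was -0.43 ± 0.17 (adjusted p = 0.354). The spread of this fit included the controls, of which control 1 had 12.25 and 12.83 and control 2 12.95 and 12.08 in the arrays labelled distal and proximal. Without control 2 the same difference was -0.43 ± 0.08 (adjusted p = 0.016), and Ccnd1 was then the 1 member called, beside 3.11% of all genes. The same held without control 1, which also takes the opposed pair out of the spread. Cdkn1b was lower at the distal end in all 4 knockout mandibles, by 0.60, 0.40, 0.38 and 0.08 (-0.37 ± 0.14, adjusted p = 0.318), and at -0.15 and 0.06 in controls 1 and 2. Cdkn2c followed by p in the knockout mandible (0.45 ± 0.24, adjusted p = 0.553).

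**Figure D5:**
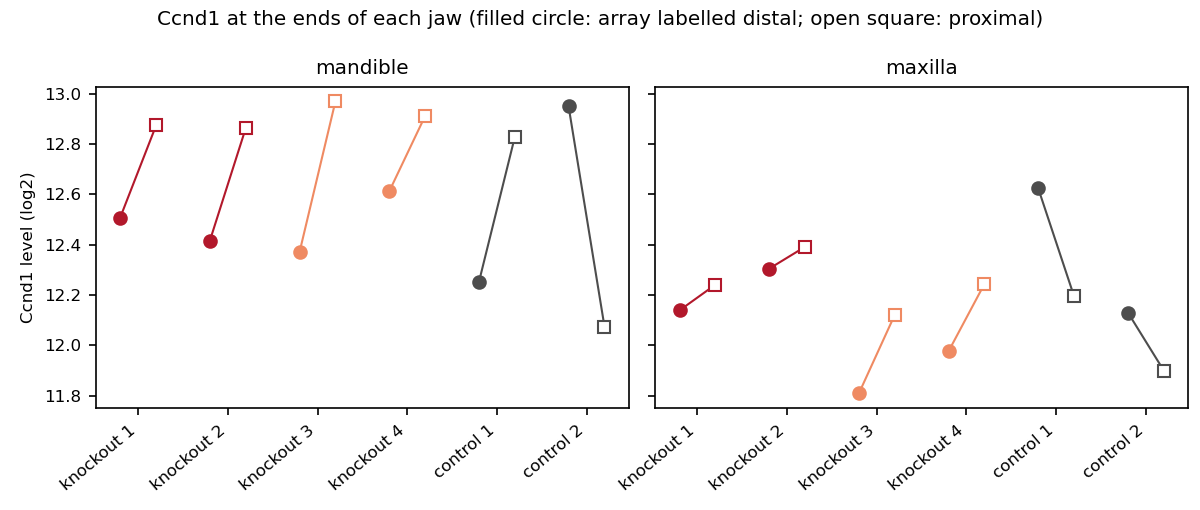
Log2 level of Ccnd1 (y axis) on the arrays labelled distal (filled circles) and proximal (open squares) of each numbered knockout and control (x axis), with the mandible on the left and the maxilla on the right. Distal lies below proximal in the mandible of all 4 knockouts and control 1, by 0.30 to 0.60, and above it by 0.87 in control 2.

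In the maxilla Ccnd1 had distal minus proximal differences of -0.10, -0.09, -0.31 and -0.27 in knockouts 1 to 4 and 0.43 and 0.23 in controls 1 and 2. With the proximal arrays of knockouts 1 and 2 exchanged, as their sex allows, their differences were -0.25 and 0.06, so the sign in each number is not settled there. The smallest p in the knockout maxilla were those of Cdk6 (-0.20 ± 0.10), Mcm3 (-0.17 ± 0.10) and Cdc6 (-0.25 ± 0.15, adjusted p = 0.939). In controls taken over both jaws, 0 of 37 members were called between the ends, beside 0% of all genes, and also without control 2, beside 0.802% of all genes. The smallest p with both controls were those of Cdk6 (0.15 ± 0.10), Ccnd1 (0.24 ± 0.17) and Tyms (0.38 ± 0.28). The interaction of genotype and end called 0 members, beside 0.00723% of all genes, and 0 without control 2, beside 0.0145%. Its smallest p were those of Ccnd1 (-0.55 ± 0.21, adjusted p = 0.971), Cdk6 (-0.27 ± 0.12) and Cdc20 (-0.18 ± 0.12). Without control 1, which leaves control 2 as the only control, Ccnd1 passed (-0.86 ± 0.13, adjusted p = 0.0103). Without knockout 2, which leaves knockout 1 alone in its set, Ccne2 (-0.56), Pcna (-0.49) and Mcm4 (-0.53) passed, and in the knockout maxilla 7 members were lower at the distal end (Ccne2, Pcna, Mcm4, Cdc6, Cdk1, Bub1 and Mcm3), beside 8.44% of all genes.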

How the data were processed

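RNA of 24 mouse samples was measured on Affymetrix Mouse430_2 arrays. The authors deposited log2 values. RMA is named in the submitters' processing notes, and its version is not given in the sources used here; whether all arrays were in 1 run is not stated. Of 45101 probe sets, 64 were control features, 34945 carried 1 gene symbol, 932 several and 9160 none in the platform annotation, and 34741 of those with 1 symbol matched RefSeq (GRCm38.p6), which also gave the promoters.

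Genes above the 40th percentile of values (6.07) on at least 2 arrays were tested with limma 3.58.1 in R 4.3.3 (lmFit, eBayes, 2-sided), with Benjamini-Hochberg adjustment over all 13837 and a threshold of 0.05. Comparisons of genotype over all parts used means over the 4 parts for each number, single parts used 8 group means, and comparisons within a genotype used 12 group means, array set by part. The steps were tested on simulated data. Members past the threshold were named, up to 6 each way by size, or the 3 smallest p where fewer than 3 passed, as were members with an array far from the rest of its group; genes of further lists were named up to 2 each way by smallest p. Members outside this rule, probe sets, Cdkn1a and Cdkn2b were chosen after their values were seen. The members and lists were chosen with earlier results of these data known. Same-numbered samples did not deviate together throughout (correlations between parts of -0.68 to 0.58), so the numbers were not taken as pairs. Alternatives covered the filter, centring, averaging of probe sets, RNA quality, array sets, the replicate block and leaving out each number. Crossed numbers and sex as a covariate were added after seeing the data. No 2 arrays were identical (highest correlation 0.997).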

Additional observations from a re-analysis of the deposited data

Results flagged for a closer look

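In the 4 knockout arrays of a part, 6 of 148 groups of values held an array far from the other 3, where chance gives about 1 in 20 for 4 values of a single distribution. The 4 arrays come from both knockout array sets, and the genes share arrays, so that rate does not apply as it stands. Of the 6 groups, 5 were knockout 1 distal maxilla, the array with the highest 3' excess (1.50). Its Ccne2 level was 7.73, against 9.65 to 9.93 on the other 3 arrays. Bub1 stood at 10.41 there (11.30 to 11.38 on the others), Aurkb at 9.65 (10.38 to 10.51) and Top2a at 12.23 (12.66 to 12.72), all low, and E2f1 at 9.75 (9.34 to 9.40), high. The remaining one was Ccna2, cyclin A2, at 12.23 in knockout 3 distal mandible, against 12.02 to 12.05 on the other 3 arrays.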

How the results depend on the processing

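Of 199 alternative counts of members called, 171 stayed within 1.5 times the reported count and 28 did not, and of 361 alternative values of 28 named differences, 308 kept their direction and side of the threshold, 43 lost the call and 10 reversed. All 10 reversals came with the 3' excess as a covariate. Against control, knockouts 1 and 2 then had Cdkn2c at 1.44, Ccne2 at 2.28, Pcna at 1.44, Ccnb2 at 1.14 and Mcm4 at 1.53, and against knockouts 3 and 4 Cdkn2c at 0.30, Pcna at 0.90, Ccnb2 at 0.65, Ccne2 at 1.54 and Mcm4 at 0.77, with 0 members called in both comparisons. The 3' excess of knockouts 1 and 2 does not overlap that of the other sets, so the fit with this covariate can separate it from the set only through the spread within sets. The replicate block, which leaves knockouts 3 and 4 without a control of their number, called 18 members over all parts 17 and 15 in the proximal and distal mandible, 13 and 16 in the proximal and distal maxilla, and 0 between the jaws of controls. It moved no other count by over 1.5 times. The 3 array sets in 1 fit called 12 members over all parts. Between the jaws of knockouts, knockouts 1 and 2 alone gave 1 member and knockouts 3 and 4 alone 0. Between those of controls, centring, no filter and 8 groups without array set each gave 0. Leaving out 1 number gave 12 to 17 members in knockouts 1 and 2 against control, 0 to 3 between knockout jaws, 0 to 1 between control jaws, 0 to 1 between the ends of the knockout mandible, 0 to 7 between those of the maxilla and 0 to 3 in the interaction of genotype and end. With crossed numbers, knockouts 1 and 2 had 14 members called against control and 22 against knockouts 3 and 4, and a block on those numbers gave 1 between the ends of the knockout mandible. Counts given here without the share of all genes show only how the number of members called moved with the setting. Beyond the constructions stated, the cause was not tested. With 2 control arrays a part, the number of arrays limits what single parts can show.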
